A study of Acartia tonsa with 26 samples.

Results

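Eggs of the calanoid copepod Acartia tonsa at 24 h of subitaneous development, when the appendages form, were set against eggs at 14 h, when the organs form. The deposited table of subitaneous development holds 9502 genes, of which 3072 reached a value of 1 in 3 or more of these 8 libraries and were tested. The 24 h stage has 4 libraries (A, B, C and D) and the 14 h stage has 4 (A, B, C and E), out of 26 libraries in the series. Levels at other stages come from 5 libraries each at 3 h, 7 h and 42 h and from 3 libraries of quiescent eggs at 26 h. The copepods lived in the dark in 60 L tanks at a salinity of 32 and 16.9 °C, and subitaneous eggs, which develop without a pause, stayed in those conditions. The quiescent eggs had been moved to 4 °C without oxygen. No mutant, transgene or drug was used. RNA was extracted from pools of whole eggs with an RNeasy kit, and TruSeq libraries were built from 0.3 µg of it. The replicates are technical according to the series' design, so the p-values measure only the spread between such samples and not that between cultures. Because whole eggs were pooled, fewer cells of a type and less RNA per cell cannot be told apart.

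A copepod hatches as a nauplius, a larva that swims with its antennules, antennae and mandibles. Those limbs are moved by striated muscle. In its sarcomeres, thick filaments of myosin pull on thin filaments of actin, tropomyosin and troponin that are anchored at the Z disc. Each limb is encased in a cuticle of chitin fibres and cuticle proteins, which the epidermis secretes. All of this is built inside the egg from yolk, with no food taken in.

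Values are the authors' normalized read signal, in which 1 read was worth 0.00894 to 0.0106 depending on the library, so a value of 1 stood for 94.1 to 112 reads. They are not scaled by gene length, so levels are compared here between libraries and not between genes. The reads of the table came to between 5.64e+06 and 9.21e+06 per library at 24 h and between 4.99e+06 and 5.46e+06 at 14 h. These are not full depths, since the table holds only genes that the authors had selected as changing during subitaneous development, with an alpha of 0.001 and a minimum fold of 2. A call made on such genes is therefore no independent evidence of change. Library 24 h D stood apart, with a summed value of 97902 against 52153 to 60043 in the other 24 h libraries, and 41.0% of it lay in its 20 highest genes. In 164 genes, 153 of them with neither a match nor a domain, it exceeded the next 24 h library by more than 3-fold, and these genes made up 48.0% of its sum. It was also the lowest 24 h library in 41.5% of all tested genes, and 14 h E was the highest 14 h library in 55.4%. In a principal component analysis the first component (49.5% of the variance) separated the 4 libraries at 24 h from the 4 at 14 h. On the second component (28.7%), 24 h D lay on the side of 14 h A and B, opposite to the other 24 h libraries and to 14 h C and E.

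At 24 h, 595 genes were higher than at 14 h (19.4% of those tested) and 666 were lower (21.7%), by limma with Benjamini-Hochberg adjustment at 0.05. The 1811 others did not pass the test, and the median log2 change over all 3072 genes was 0.01. The median log2 change was 1.005 among the genes that rose and -1.32 among those that fell, and 19 of the rises against 131 of the falls exceeded 2 on the log2 scale. The 24 h and 14 h libraries did not overlap in 493 of the 595 (82.9%) and 590 of the 666 (88.6%), nor in 1179 of all 3072 tested genes (38.4%), and a call made on the same 8 libraries largely fixes such a gap. The labels carry sample numbers but name no batch. Because some numbers recur across the series, letters A and B were divided from C, D and E as separate sample sheets. Over all 3072 tested genes, the change had the same sign within both divisions in 2262 (73.6%), and a fit with a sample-sheet term called 572 genes higher and 668 lower. Leaving out 24 h D gave 735 genes higher (23.9%) and 612 lower (19.9%), of which 555 and 583 were also called with all 8 libraries. Leaving out 14 h A gave 334 genes higher and leaving out 14 h B gave 366, while the genes lower numbered 559 and 609. Quantile normalization, which makes the libraries' distributions equal, gave 849 higher and 623 lower and moved the median change of all genes to 0.13. In edgeR on recovered reads, 739 were higher and 483 lower, also with a median change of 0.13. With the spread estimated over all 26 libraries of the series in place of these 8, 204 were higher and 493 lower.

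**Figure D1:**
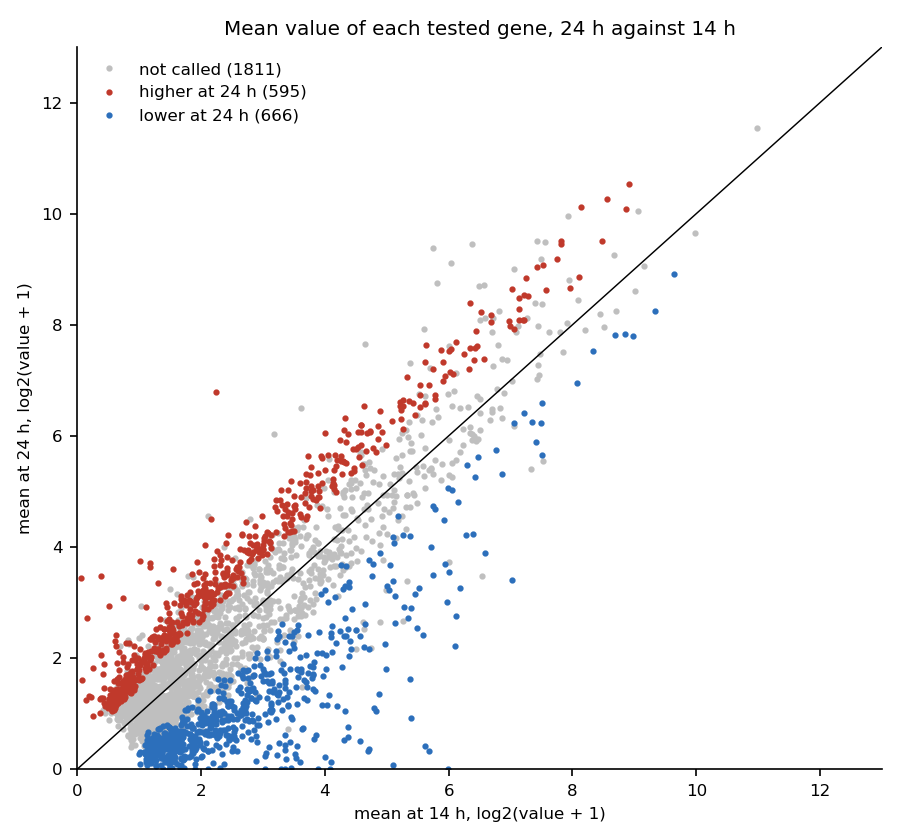
Mean value of each of the 3072 tested genes at 24 h (vertical axis) against its mean at 14 h (horizontal axis), both as log2(value + 1), each point a gene and the line marking equal means. The 595 genes higher at 24 h lie close above the line, and many of the 666 lower genes lie far below it, along the bottom of the plot.

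Of the 3072 genes, 1038 carried a protein match or domain in their assembly identifiers, and 792 of those fell into 39 lists by function. A match names the most similar known protein, which leaves the identity of the copepod gene unsettled. Several assembly genes with the same match can be pieces or near-identical copies of 1 gene between which reads were divided, so counts of genes within a family are uncertain. Below, the values of a gene are given in the order A, B, C and D at 24 h and A, B, C and E at 14 h, changes are 24 h minus 14 h on the log2(value + 1) scale, followed by the fit's standard error. Means are given with the SD over 4 libraries. Such changes understate the fold of genes with low values. Every share of a list or kind of gene is to be read beside the 19.4% of all tested genes that rose and the 21.7% that fell.

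**Figure D2:**
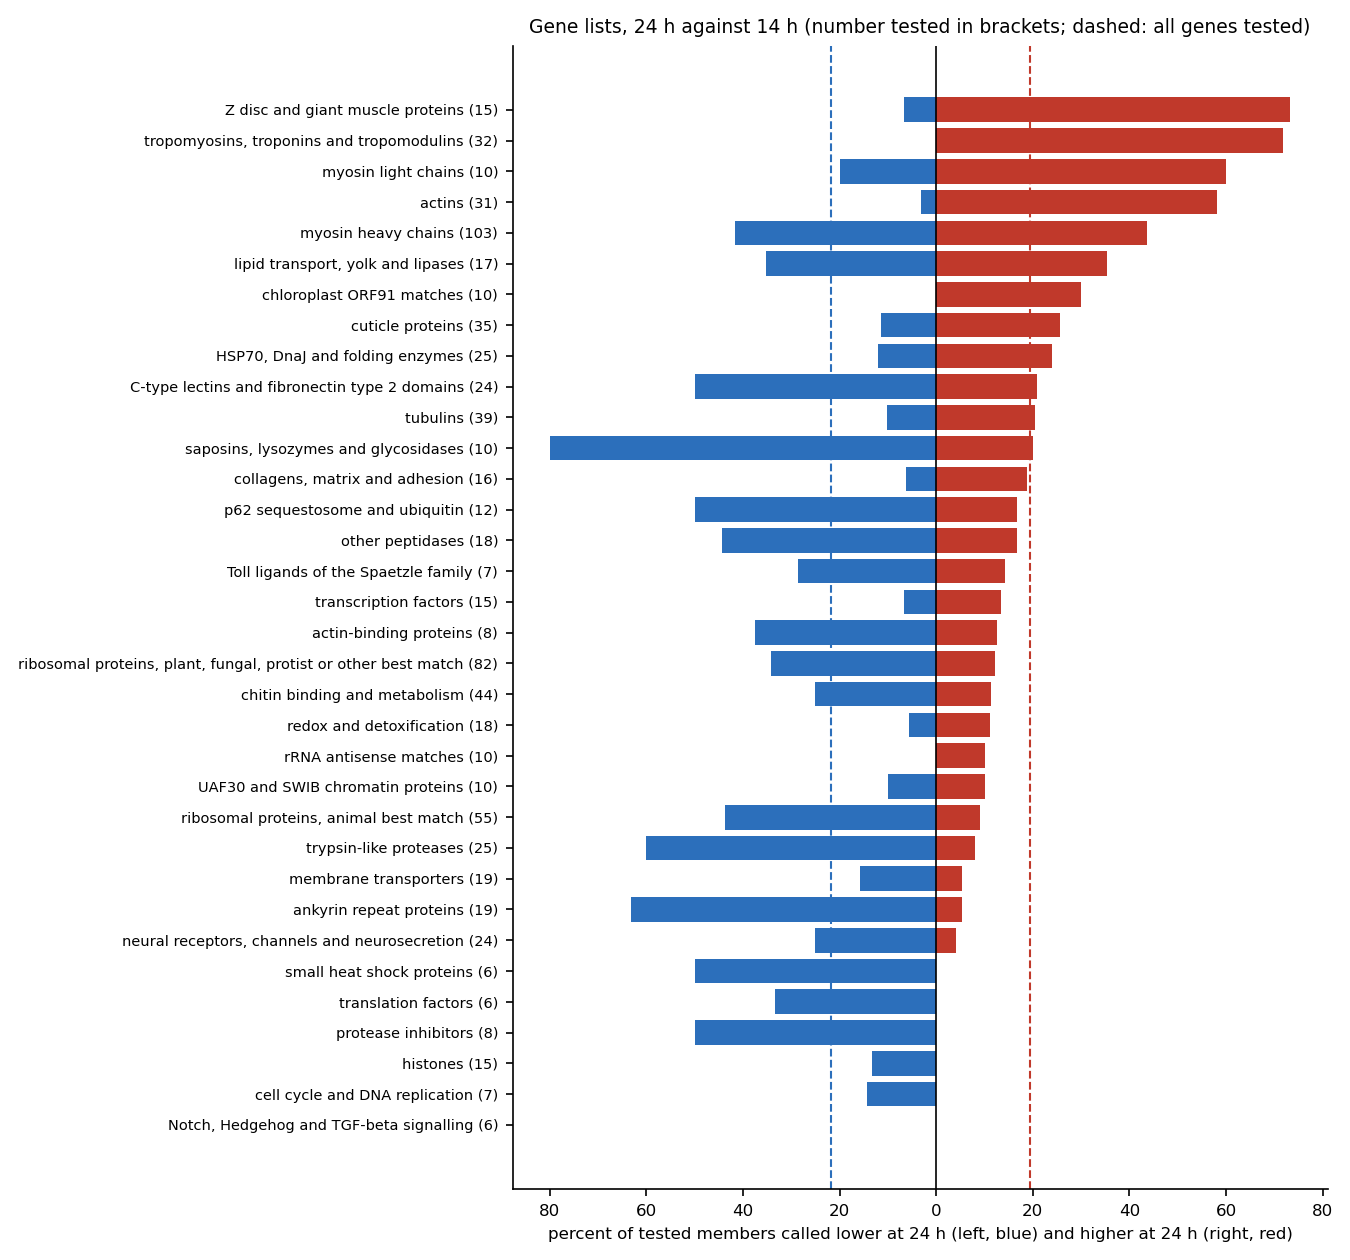
Percent of the tested members of each gene list that were higher at 24 h (red, to the right) or lower at 24 h (blue, to the left), for lists with at least 6 tested members, whose number is in brackets. The dashed lines mark all tested genes, 19.4% higher and 21.7% lower. Muscle lists stand at the top. Saposins, lysozymes and glycosidases reach furthest to the left (80%), followed by ankyrin repeat proteins and trypsin-like proteases.

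In the 6 lists of muscle proteins and their kinases, the share of tested members that rose ran between 43.7% in myosin heavy chains and all 4 arginine and adenylate kinases, beside 19.4% of all genes. Myosin heavy chain matches also held falls, at 41.7% beside 21.7% of all genes. Myosin heavy chain is the motor protein of the thick filament, with a head that pulls on actin and a tail that packs into the filament. Of 129 myosin heavy chain genes in the table, 103 were tested, 45 of which rose and 43 fell. The values of DN5896_c0_g1, whose match is a mouse myosin, were 140.4, 264, 156 and 227 at 24 h, against 26.2, 38.2, 64.1 and 66.4 at 14 h. Every 24 h library lay above every 14 h library, and the means differed 4.04-fold (log2 change 2.04 ± 0.35, adjusted p = 0.0023). DN288_c0_g3, which matches the fly muscle myosin, had 512, 757, 789 and 854 at 24 h, against 146, 155, 251 and 347 at 14 h. It was 3.24-fold higher by the means, with no overlap between the stages (log2 change 1.76 ± 0.32, adjusted p = 0.0028). Within the 14 h libraries these genes were lowest in A and B and highest in C and E.

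The opposite set of myosin matches was low at 24 h. DN5090_c0_g1, also a match to the fly muscle myosin, had 0, 0, 0 and 0 at 24 h, against 37.8, 28.6, 75.4 and 109 at 14 h. With no read in any 24 h library, its mean at 24 h was at least 1970-fold lower than at 14 h when 3 reads per library are taken as the floor (log2 change -5.8 ± 0.39, adjusted p = 7.0e-05). DN7006_c0_g1, a match to a human myosin, had 0, 0, 0 and 0.202 at 24 h, against 18.7, 16, 41.9 and 57.1 at 14 h. Its stages did not overlap, and only 24 h D held reads among the 24 h libraries (log2 change -4.85 ± 0.39, adjusted p = 1.0e-04). DN314_c1_g1 averaged 0.248 ± 0.139 at 24 h and 50.2 ± 31.4 at 14 h (log2 change -5.16 ± 0.4, adjusted p = 9.8e-05). DN112456_c0_g1 averaged 0.327 ± 0.432 at 24 h and 47.9 ± 30.1 at 14 h (log2 change -5.06 ± 0.42, adjusted p = 1.0e-04). DN73250_c0_g1 was likewise at 0 in all 4 libraries at 24 h, against a mean of 16.03 at 14 h, which is at least 503-fold lower. The match did not tell the sets apart. Of the 10 falling and 8 rising myosin genes named here, 7 and 6 carry the fly muscle myosin among their matches.

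The other rising myosin heavy chain genes that the rule named were DN2708_c0_g2 (log2 change 1.79), DN13715_c0_g1 (1.71), DN6546_c0_g1 (1.71), DN288_c0_g1 (1.7), DN2708_c1_g1 (1.69) and DN36588_c0_g1 (1.68). The last of these averaged 187 ± 39 at 24 h and 58 ± 15.5 at 14 h (log2 change 1.68 ± 0.26, adjusted p = 0.0016). The other falling ones were DN15878_c0_g1 (-4.21), DN27126_c0_g1 (-4.2), DN159746_c0_g1 (-3.97), DN18174_c0_g1 (-3.82) and DN23174_c0_g1 (-3.81). None of these 11 genes had a call that ended when 1 library was left out. Their stages did not overlap either, but most of them were named by a rule that asked for that. The number of myosin heavy chains that rose was 30 to 48 without 1 library, the lowest without 14 h A, and 10 with the spread of all 26 libraries. The number that fell was 40 to 43 without 1 library and 42 with that spread.

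The 2 sets had these levels at other stages. The lowest, median and highest summed values of the 45 rising genes were 459.9, 535 and 900.1 at 3 h, then 995, 1003 and 1556 at 7 h and 913, 1391 and 2170.1 at 14 h, then 3229.5, 4129 and 4748 at 24 h and 206, 3726 and 6332 at 42 h, and 686, 754 and 941 in quiescent eggs. Those of the 43 falling genes were 26, 71.6 and 77.8 at 3 h, then 13.2, 15.6 and 16.8 at 7 h and 363, 572 and 1188 at 14 h, then 18.4, 29.9 and 44.3 at 24 h and 16.1, 48.1 and 141 at 42 h, and 19.3, 74.1 and 194 in quiescent eggs. The rising set was thus present from 3 h on, and at 42 h it spanned 206 in 42 h D and 1451 in 42 h B to 6332. In the falling set no library of any other stage reached the lowest value at 14 h, and its highest value at 42 h was the 141 of 42 h D.

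**Figure D3:**
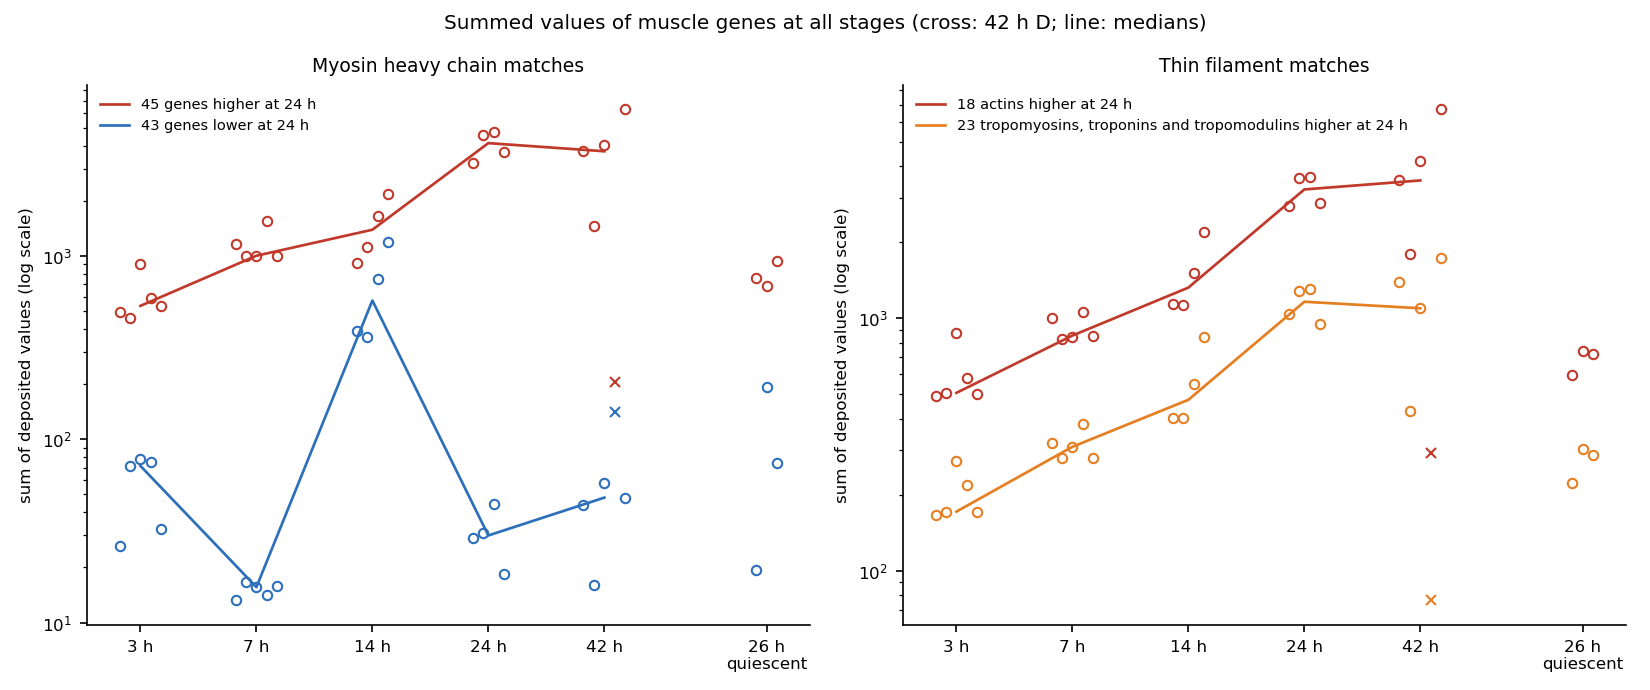
Summed deposited values (vertical axis, log scale) of myosin heavy chain genes (left) and thin filament genes (right) at 3, 7, 14, 24 and 42 h and in quiescent eggs, each point a library, lines joining the stage medians and a cross marking 42 h D. The myosin set in blue has a median of 29.9 at 24 h and 572 at 14 h, while the set in red stands at 4129 and 1391.

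Myosin light chains, the calcium-responsive subunits that clasp the neck of the heavy chain, held rises and falls. In this list, 6 of 10 tested members rose (60%) and 2 fell (20%), with a median log2 change of 0.82. DN2077_c0_g1, a match to a regulatory light chain of the silkworm, had 46.6, 52.9, 52.8 and 38.7 at 24 h, against 12.5, 10.8, 16.1 and 18.2 at 14 h. No library of 1 stage reached into the other (log2 change 1.68 ± 0.24, adjusted p = 0.0012). DN2072_c1_g2, whose match is the same silkworm protein, had 4.7, 5.93, 6.46 and 5.17 at 24 h, against 33.6, 26.9, 39.3 and 59 at 14 h, so it was 7.13-fold lower by the means (log2 change -2.58 ± 0.28, adjusted p = 2.5e-04). DN6722_c0_g1, a match to a crayfish light chain, averaged 125 ± 13.5 at 24 h and 59.1 ± 11.5 at 14 h (log2 change 1.08 ± 0.22, adjusted p = 0.005). DN6285_c0_g1 (1.19) and DN536_c0_g1 (1.21) rose as well, and DN59215_c0_g1 fell (-1.08). Those that rose numbered 0 with the spread of all 26 libraries.

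Thin filament genes rose with 1 exception among those called. Actins are the filament's subunits, and the list also holds cytoskeletal forms that a match cannot tell from the muscle ones. Among actins, 18 of 31 tested members rose (58.1%) and 1 fell (3.23%), with a median log2 change of 0.96. DN4364_c1_g1, whose match is the actin of another copepod, Calanus finmarchicus, had 309.8, 424, 394 and 349 at 24 h, against 115, 108, 154 and 211 at 14 h. All 4 libraries at 24 h were above the highest at 14 h (log2 change 1.37 ± 0.26, adjusted p = 0.0036). DN8377_c0_g1 averaged 20.9 ± 3.9 at 24 h and 5.59 ± 2.14 at 14 h (log2 change 1.78 ± 0.3, adjusted p = 0.0022). DN3876_c0_g1 averaged 92 ± 9.41 at 24 h and 37.6 ± 15.3 at 14 h (log2 change 1.35 ± 0.29, adjusted p = 0.0063). DN1612_c1_g1 averaged 17.4 ± 1.33 at 24 h and 6.32 ± 2.04 at 14 h (log2 change 1.37 ± 0.26, adjusted p = 0.0034). The single actin that fell, DN7438_c0_g1, has its first match in a slime mould, Physarum. It had 3.16, 1.4, 2.58 and 2.17 at 24 h, against 12, 12.9, 16.1 and 8.01 at 14 h (log2 change -1.99 ± 0.28, adjusted p = 0.0011). The number of actins that rose was 1 with the spread of all 26 libraries, 10 without 14 h A and 11 after quantile normalization.

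Tropomyosin lies along the thin filament and troponin opens it to myosin when calcium rises, and tropomodulin caps its end. In this list, 23 of 32 tested members rose (71.9%) and 0 fell (0%), with a median log2 change of 1.01. DN3590_c0_g1, a match to crayfish troponin I, the inhibitory subunit, had 38.4, 41.9, 41.9 and 34 at 24 h, against 11.1, 10.6, 13.3 and 20.1 at 14 h. It was 2.83-fold higher by the means without overlap (log2 change 1.47 ± 0.25, adjusted p = 0.0023). DN1777_c0_g1, a match to troponin C, the subunit that binds calcium, averaged 25.4 ± 3.27 at 24 h and 8.14 ± 1.94 at 14 h (log2 change 1.55 ± 0.24, adjusted p = 0.0015). DN741_c0_g1, a match to barnacle troponin C, averaged 9.25 ± 1.35 at 24 h and 3.23 ± 1.29 at 14 h (log2 change 1.32 ± 0.27, adjusted p = 0.0049). DN1368_c0_g1, a match to shrimp tropomyosin, averaged 8.07 ± 1.86 at 24 h and 2.54 ± 0.518 at 14 h (log2 change 1.34 ± 0.25, adjusted p = 0.0031). The summed value of the 32 tested members was 1008 to 1383 at 24 h, against 445 to 912 at 14 h. Members that fell numbered 0 in limma, 0 at an unadjusted p under 0.05, 0 in edgeR and 0 in DESeq2. Between 19 and 24 members rose when any 1 library was left out, but the number was 6 with the spread of all 26 libraries.

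The Z disc is where thin filaments of neighbouring sarcomeres meet. In the list of Z disc and giant muscle proteins, 11 of 15 tested members rose (73.3%) and 1 fell (6.67%). The median log2 change was 0.68. DN8502_c0_g1, a match to a muscle LIM protein of the fly, had 31.3, 34.9, 36.5 and 23.2 at 24 h, against 8.98, 7.51, 10.3 and 11.8 at 14 h. Muscle LIM proteins bind alpha-actinin at the Z disc, and here every value at 24 h exceeded the highest at 14 h (log2 change 1.6 ± 0.24, adjusted p = 0.0014). DN7983_c0_g1, a match to the fly protein ZASP, which also binds alpha-actinin, averaged 13.8 ± 2.53 at 24 h and 5.84 ± 1.48 at 14 h (log2 change 1.12 ± 0.26, adjusted p = 0.0079). DN4637_c0_g1, a LIM protein of the FHL type, averaged 8.04 ± 1.95 at 24 h and 3.12 ± 0.714 at 14 h (log2 change 1.12 ± 0.26, adjusted p = 0.008). DN1712_c0_g2, a match to smoothelin, averaged 19.4 ± 4.26 at 24 h and 9.22 ± 2.0 at 14 h (log2 change 0.99 ± 0.25, adjusted p = 0.013). DN2927_c0_g1, whose match is the human relative of ZASP, fell, with 1.34, 1.35, 1.31 and 0.68 at 24 h, against 3.11, 2.23, 3.37 and 5.35 at 14 h (log2 change -1.03 ± 0.26, adjusted p = 0.013). Under other settings, rises numbered 5 without 14 h A or 14 h B and with the spread of all 26 libraries, 6 without 24 h B, 24 h C or 14 h C and 7 without 24 h A.

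All 4 tested arginine and adenylate kinase genes rose, with a median log2 change of 1.19. Arginine kinase holds the energy reserve of crustacean muscle as phosphoarginine, and adenylate kinase evens out adenine nucleotides. DN500_c0_g1, a match to a nematode adenylate kinase, had 41.8, 48.9, 53.1 and 39 at 24 h, against 16.2, 16.3, 19 and 21 at 14 h (log2 change 1.29 ± 0.22, adjusted p = 0.0023). The arginine kinase match DN11355_c0_g1 had 3.31, 3.27, 2.72 and 2.39 at 24 h, against 0.811, 0.709, 0.776 and 1.37 at 14 h (log2 change 1.04 ± 0.21, adjusted p = 0.0046), with 14 h E nearest to the 24 h libraries. The adenylate kinase matches DN846_c0_g1 (1.22) and DN2110_c0_g1 (1.16) rose as well, and all 4 calls held without any 1 library. Falls in this list numbered 0 in limma, 0 at an unadjusted p under 0.05, 0 in edgeR and 0 in DESeq2.

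Of the general actin-binding proteins, more fell than rose. In this list, 1 of 8 tested members rose (12.5%) and 3 fell (37.5%), beside 19.4% and 21.7% of all genes. The median log2 change was -0.66. Cofilin cuts actin filaments and profilin feeds monomers to their ends. The cofilin match DN6892_c0_g1 had 1.14, 0.111, 0.542 and 0.436 at 24 h, against 4.01, 3.61, 3.99 and 2.49 at 14 h (log2 change -1.56 ± 0.25, adjusted p = 0.0018). The other, DN6367_c0_g1, averaged 0.541 ± 0.38 at 24 h and 2.52 ± 0.59 at 14 h (log2 change -1.21 ± 0.24, adjusted p = 0.0042). The profilin match DN1978_c0_g1 averaged 0.956 ± 0.628 at 24 h and 5.16 ± 1.02 at 14 h (log2 change -1.7 ± 0.28, adjusted p = 0.0022). None of these has its first match in an animal, and the 3 stand with a smut fungus, a slime mould and a grass. DN3003_c1_g1, a match to MICAL, an enzyme that oxidises actin, rose and averaged 2.01 ± 0.335 at 24 h and 0.797 ± 0.187 at 14 h (log2 change 0.74 ± 0.18, adjusted p = 0.011).

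**Figure D4:**
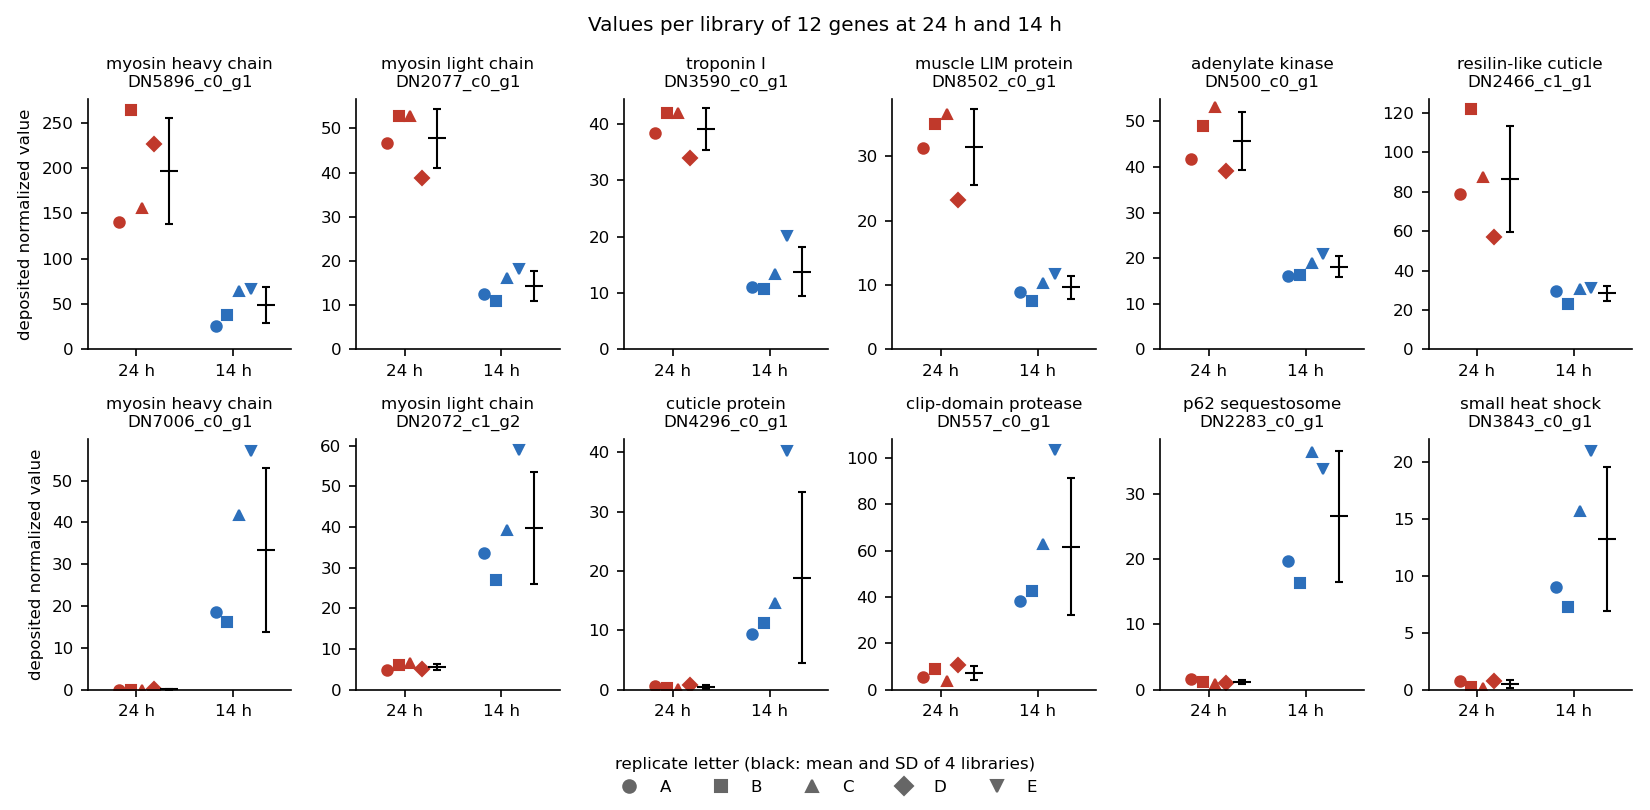
Deposited normalized values (vertical axes, from 0) of 12 genes in each library at 24 h (red) and 14 h (blue), marker shapes giving the replicate letter and black bars the mean and SD of 4 libraries. The upper row shows genes higher at 24 h and the lower row genes lower at 24 h, and in no panel do the stages overlap.

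Among tubulins, the subunits of microtubules, 8 of 39 tested members rose (20.51%) and 4 fell (10.3%), with a median log2 change of 0.42. The share that rose is near the 19.4% of all genes and the share that fell is below their 21.7%, so these counts are no result about the list. The 4 leading genes that rose match alpha tubulins of animals. DN10894_c0_g1, with a match to a mite, had 201.4, 205, 219.7 and 138 at 24 h, against 65.8, 68.7, 76.9 and 108 at 14 h. Its lowest 24 h library, D, stood above 14 h E (log2 change 1.25 ± 0.25, adjusted p = 0.0044). DN10307_c0_g1 averaged 53.4 ± 8.07 at 24 h and 21.7 ± 4.81 at 14 h (log2 change 1.28 ± 0.24, adjusted p = 0.0035). DN22058_c0_g1 averaged 23.9 ± 2.22 at 24 h and 9.58 ± 4.35 at 14 h (log2 change 1.31 ± 0.29, adjusted p = 0.0073). DN1365_c4_g1 averaged 138 ± 37.2 at 24 h and 65.9 ± 20.04 at 14 h (log2 change 1.05 ± 0.3, adjusted p = 0.019). Those that fell were low at both stages, DN21605_c0_g1 at 0.854 ± 0.624 at 24 h and 4.2 ± 1.73 at 14 h (log2 change -1.5 ± 0.36, adjusted p = 0.0093), DN18721_c0_g1 (-1.11), DN34572_c0_g1 (-0.91) and DN8113_c1_g1 (-0.69). Among refits, the call ended for DN1365_c4_g1 without 24 h B, 24 h C, 14 h A or 14 h B (adjusted p = 0.0519 to 0.0564) and for DN8113_c1_g1 without 24 h A, 24 h B, 24 h C, 24 h D, 14 h A, 14 h B or 14 h C (adjusted p = 0.0535 to 0.126). The number of tubulins that rose was 0 with the spread of all 26 libraries, 5 without 24 h B, 24 h C, 14 h A or 14 h B, 13 without 14 h E and 14 with the replicate letter as a block.

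In the list of cuticle proteins, 9 of 35 tested members rose (25.7%) and 4 fell (11.4%), with a median log2 change of 0.55. Of all tested genes, 19.4% rose and 21.7% fell. Most carry the chitin-binding domain of arthropod cuticle proteins. DN2466_c1_g1, a match to fly pro-resilin, the precursor of a rubber-like cuticle protein, had 79.1, 122, 87.7 and 57.3 at 24 h, against 29.7, 23, 30.7 and 31.1 at 14 h. It was 3.03-fold higher by the means with no overlap (log2 change 1.52 ± 0.27, adjusted p = 0.0026), and its neighbour in the assembly DN2466_c0_g1 averaged 7.29 ± 2.08 at 24 h and 2.48 ± 1.17 at 14 h (log2 change 1.27 ± 0.31, adjusted p = 0.01). DN10650_c0_g1, a match to a larval cuticle protein of a moth, averaged 18.3 ± 3.58 at 24 h and 7.37 ± 2.14 at 14 h (log2 change 1.22 ± 0.27, adjusted p = 0.0064). DN1098_c0_g2, again a resilin match, averaged 9.85 ± 2.6 at 24 h and 4.63 ± 1.4 at 14 h (log2 change 0.94 ± 0.28, adjusted p = 0.021), and the call was lost for DN1098_c0_g2 without 24 h B, 24 h C, 14 h A, 14 h B or 14 h C (adjusted p = 0.0536 to 0.0631). The number of cuticle genes that rose was 0 with the spread of all 26 libraries, 3 without 24 h B, 14 h A, 14 h B or 14 h C, 4 without 24 h C, 5 without 24 h A, 15 without 24 h D and in edgeR and 17 with the replicate letter as a block.

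The 4 genes of the cuticle list that fell averaged under 1.5 at 24 h, and the match of DN7721_c0_g1 is not a cuticle protein. DN4296_c0_g1, a match to a cuticle protein of the locust, had 0.582, 0.333, 0.029 and 0.776 at 24 h, against 9.4, 11.2, 14.5 and 40.2 at 14 h. It was 43.8-fold lower by the means at 24 h, and 14 h E was the highest library (log2 change -3.59 ± 0.42, adjusted p = 3.8e-04). DN4493_c0_g1, another locust match, averaged 0.639 ± 0.443 at 24 h and 11.4 ± 6.91 at 14 h (log2 change -2.81 ± 0.38, adjusted p = 8.7e-04). DN794_c0_g1, known by its domain only, averaged 1.36 ± 0.433 at 24 h and 12.1 ± 7.42 at 14 h (log2 change -2.32 ± 0.38, adjusted p = 0.0019). DN7721_c0_g1, a match to a moth defence protein with a reeler domain, averaged 0.397 ± 0.197 at 24 h and 2.17 ± 2.0 at 14 h (log2 change -1.01 ± 0.36, adjusted p = 0.0462). The call ended for DN7721_c0_g1 without 24 h A, 24 h B, 24 h C, 24 h D, 14 h A, 14 h C or 14 h E (adjusted p = 0.0502 to 0.0995). The lowest, median and highest summed values of the 4 that fell were 12.9, 18.1 and 31.2 at 3 h, then 0.659, 2.56 and 5.76 at 7 h and 22.2, 33.3 and 89 at 14 h, then 1.59, 2.77 and 4.17 at 24 h and 27.4, 138 and 350.3 at 42 h, and 8.28, 16.2 and 20.7 in quiescent eggs, and those of the 9 that rose were 59.1, 74.1 and 110.3 at 3 h, then 69.6, 83.4 and 95.2 at 7 h and 138, 157 and 219 at 14 h, then 245, 366 and 464 at 24 h and 45.4, 809 and 1583 at 42 h, and 55, 87.6 and 88 in quiescent eggs.

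Other chitin genes include chitin-binding proteins and chitinases. In this list, 5 of 44 tested members rose (11.4%) and 11 fell (25%), beside 19.4% and 21.7% of all genes. The share that fell is thus near that of all genes, and the median log2 change was 0.33. DN5228_c0_g1, a match to a fly chitinase, had 0.454, 1.16, 0 and 0.425 at 24 h, against 4.11, 3.49, 5.0 and 8.68 at 14 h. Chitinases cut chitin, and this gene was 10.5-fold lower at 24 h by the means (log2 change -2.06 ± 0.32, adjusted p = 0.0015). DN14546_c0_g1, a match to plant-type chitinases, averaged 0.531 ± 0.32 at 24 h and 3.67 ± 1.88 at 14 h (log2 change -1.54 ± 0.32, adjusted p = 0.0049). DN17465_c0_g1, known by its chitin-binding domain, averaged 0.342 ± 0.309 at 24 h and 2.49 ± 1.5 at 14 h (log2 change -1.31 ± 0.31, adjusted p = 0.0088). DN2207_c0_g1, a match to a nematode chitin-binding protein of the eggshell, averaged 1.19 ± 0.554 at 24 h and 4.38 ± 1.62 at 14 h (log2 change -1.28 ± 0.29, adjusted p = 0.0076). The 4 named that rose had overlapping stages. They were DN809_c0_g1 with a chitin-binding domain (0.92) and the matches to fly obstructor-E, a protein that shapes chitin in the cuticle, DN12636_c0_g1 (0.88), DN284_c0_g1 (0.88) and DN3244_c0_g1 (0.79). Single-library refits lost the call for DN809_c0_g1 without 24 h A, 24 h B, 24 h C, 14 h A, 14 h B or 14 h C (adjusted p = 0.0722 to 0.0959), for DN12636_c0_g1 without 24 h A, 24 h B, 24 h C, 14 h A, 14 h B or 14 h C (adjusted p = 0.0598 to 0.0865), for DN284_c0_g1 without 24 h A, 24 h B, 24 h C, 14 h A, 14 h B or 14 h C (adjusted p = 0.0706 to 0.0746) and for DN3244_c0_g1 without 24 h A, 24 h B, 24 h C, 14 h A, 14 h B or 14 h C (adjusted p = 0.0676 to 0.115). The number that rose was 0 without 24 h A, 24 h B, 24 h C, 14 h A, 14 h B or 14 h C and with the spread of all 26 libraries, 3 in edgeR with the authors' scaling, 8 after median-ratio rescaling and in DESeq2, 9 without 14 h E, 11 in edgeR, 16 without 24 h D and with the replicate letter as a block and 19 after quantile normalization, and the number that fell was 3 with the replicate letter as a block, 6 in edgeR with the authors' scaling and 7 with the spread of all 26 libraries and in edgeR.

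Of 16 tested genes of the matrix and of cell adhesion, 3 rose (18.8%) and 1 fell (6.25%), beside 19.4% and 21.7% of all genes. The median log2 change was 0.38. The fasciclin-domain gene DN4151_c0_g1 averaged 28.9 ± 10.2 at 24 h and 11.3 ± 4.27 at 14 h (log2 change 1.26 ± 0.36, adjusted p = 0.019). The peroxidase-domain gene DN7165_c0_g1 averaged 9.91 ± 6.26 at 24 h and 3.09 ± 0.848 at 14 h (log2 change 1.24 ± 0.42, adjusted p = 0.039). The collagen match DN1757_c0_g1 averaged 5.66 ± 1.54 at 24 h and 2.58 ± 0.819 at 14 h (log2 change 0.89 ± 0.27, adjusted p = 0.026). In each of them the stages overlapped. The tenascin match DN732_c0_g1 fell, averaging 0.431 ± 0.27 at 24 h and 1.92 ± 0.819 at 14 h (log2 change -1.0 ± 0.24, adjusted p = 0.01). Calls were not kept for DN4151_c0_g1 without 24 h C or 14 h B (adjusted p = 0.0511 to 0.0551), for DN7165_c0_g1 without 24 h A, 24 h B, 24 h C, 14 h A, 14 h B or 14 h C (adjusted p = 0.0725 to 0.091) and for DN1757_c0_g1 without 24 h A, 24 h B, 24 h C, 14 h A, 14 h B or 14 h C (adjusted p = 0.0531 to 0.0699). Those that rose numbered 0 without 24 h C or 14 h B and with the spread of all 26 libraries, 1 without 24 h A, 24 h B, 14 h A or 14 h C, 5 in DESeq2, 7 with the replicate letter as a block and in edgeR, 8 without 24 h D and 9 after quantile normalization.

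The list of neural receptors, channels and neurosecretion had 83 genes in the table. Of 24 tested members, 1 rose (4.17%) and 6 fell (25%), beside 19.4% and 21.7% of all genes. The share that fell is thus near that of all genes, and the median log2 change was -0.17. DN17115_c0_g1 rose, a match to the monooxygenase that amidates neuropeptides, and had 14.4, 5.86, 15.7 and 13.2 at 24 h, against 2.52, 3.49, 2.35 and 3.0 at 14 h (log2 change 1.72 ± 0.31, adjusted p = 0.0029). The largest fall was in DN8565_c0_g1, a match to the precursor of buccalin, a neuropeptide of the sea slug Aplysia, which averaged 2.18 ± 2.73 at 24 h and 6.85 ± 3.31 at 14 h (log2 change -1.56 ± 0.52, adjusted p = 0.037). DN6719_c0_g1, a match to a neuronal calcium sensor, averaged 3.05 ± 0.719 at 24 h and 11.2 ± 3.82 at 14 h (log2 change -1.55 ± 0.29, adjusted p = 0.0033). DN6161_c0_g1, a match to the precursor of orcokinin, an arthropod neuropeptide, had 0.491, 0.416, 0.29 and 0.616 at 24 h, against 1.98, 1.91, 2.79 and 5.02 at 14 h (log2 change -1.37 ± 0.25, adjusted p = 0.0031). DN7972_c0_g1, a match to a neurotransmitter transporter, averaged 3.02 ± 1.29 at 24 h and 7.39 ± 2.99 at 14 h (log2 change -1.05 ± 0.35, adjusted p = 0.035). The call was lost for DN8565_c0_g1 without 24 h B, 24 h C, 24 h D, 14 h A, 14 h B, 14 h C or 14 h E (adjusted p = 0.051 to 0.0878) and for DN7972_c0_g1 without 24 h B, 24 h C, 14 h C or 14 h E (adjusted p = 0.0711 to 0.0917). The number that fell was 3 without 24 h B, 14 h C or 14 h E, with the spread of all 26 libraries, with the replicate letter as a block and in edgeR with the authors' scaling, and the number that rose was 0 with the spread of all 26 libraries, 2 without 14 h E and after median-ratio rescaling, 4 without 24 h D, with the replicate letter as a block, in edgeR and in DESeq2 and 6 after quantile normalization. Neither of the 2 tested vision genes passed the test in limma. Higher ones numbered 0 at an unadjusted p under 0.05, 0 in edgeR and 0 in DESeq2, and lower ones 0 at an unadjusted p under 0.05, 0 in edgeR and 0 in DESeq2. However, 1 vision gene was called higher without 24 h D, and 1 after quantile normalization. The opsin match DN439_c1_g1, a visual pigment protein, averaged 10.2 ± 2.23 at 24 h and 14.8 ± 4.11 at 14 h (log2 change -0.47 ± 0.27, adjusted p = 0.182). The arrestin match DN3931_c0_g1 averaged 1.91 ± 0.942 at 24 h and 1.14 ± 0.213 at 14 h (log2 change 0.39 ± 0.26, adjusted p = 0.245).

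None of the 6 tested genes of Notch, Hedgehog and TGF-beta signalling passed the test in limma. Higher genes numbered 1 at an unadjusted p under 0.05, 1 in edgeR and 1 in DESeq2, and lower genes 0 at an unadjusted p under 0.05, 0 in edgeR and 0 in DESeq2. After quantile normalization 3 were higher. The Delta match DN2646_c0_g1, a ligand of Notch, averaged 1.65 ± 0.576 at 24 h and 0.986 ± 0.55 at 14 h (log2 change 0.42 ± 0.25, adjusted p = 0.198). The Patched match DN1045_c0_g1, the receptor of Hedgehog, averaged 2.61 ± 1.01 at 24 h and 3.48 ± 0.611 at 14 h (log2 change -0.35 ± 0.28, adjusted p = 0.33). Of Spaetzle proteins, the ligands of Toll receptors in flies, 1 of 7 tested members rose (14.3%) and 2 fell (28.6%), with a median log2 change of 0.08, counts near the shares of all genes. DN3344_c0_g1 had 49.3, 71.7, 64.3 and 46.3 at 24 h, against 13.1, 14.9, 23.7 and 25.1 at 14 h, with no overlap and a rise of 3.01-fold by the means (log2 change 1.57 ± 0.28, adjusted p = 0.0028). DN1616_c2_g1 averaged 0.16 ± 0.0326 at 24 h and 1.97 ± 0.932 at 14 h (log2 change -1.3 ± 0.22, adjusted p = 0.0024). DN28504_c0_g1 averaged 0.587 ± 0.545 at 24 h and 2.09 ± 0.761 at 14 h (log2 change -0.99 ± 0.27, adjusted p = 0.017). The other 4 tested Spaetzle genes were not called.

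The table holds 43 transcription factor genes. Of 15 tested members, 2 rose (13.3%) and 1 fell (6.67%), beside 19.4% and 21.7% of all genes. The median log2 change was -0.29. The number that fell was 3 without 24 h A, 4 in DESeq2 and 5 after median-ratio rescaling. DN6552_c5_g1, a helix-loop-helix match to nematode HLH-4, had 9.71, 7.85, 6.55 and 5.11 at 24 h, against 1.92, 2.88, 0.776 and 3.18 at 14 h. It rose without overlap (log2 change 1.43 ± 0.32, adjusted p = 0.0076). The zinc finger gene DN10471_c0_g1 averaged 1.21 ± 0.0561 at 24 h and 0.491 ± 0.0792 at 14 h (log2 change 0.57 ± 0.15, adjusted p = 0.013). DN11066_c0_g1, a match to the immune factor NF-kappa-B, averaged 0.278 ± 0.0687 at 24 h and 1.76 ± 0.826 at 14 h (log2 change -1.07 ± 0.21, adjusted p = 0.0045). Their calls held without any 1 library, though DN10471_c0_g1 and DN11066_c0_g1 averaged under 2 at both stages.

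Of the trypsin-like serine proteases, more fell than rose. Such enzymes cut proteins in the gut and, with a clip domain, run cascades of the body fluid that end in melanin formation or in the cleavage of Spaetzle. In this list, 2 of 25 tested members rose (8%) and 15 fell (60%), with a median log2 change of -1.1, beside falls in 21.7% of all genes. DN557_c0_g1, a clip-domain match to a beetle phenoloxidase-activating factor, had 5.19, 8.76, 3.74 and 10.5 at 24 h, against 38.4, 42.4, 62.7 and 103 at 14 h. It was 8.76-fold lower by the means with no overlap (log2 change -2.94 ± 0.39, adjusted p = 7.6e-04). DN44241_c0_g2, a match to blood clotting factor IX, averaged 1.53 ± 1.5 at 24 h and 15.7 ± 11.2 at 14 h (log2 change -2.72 ± 0.5, adjusted p = 0.0031). DN1476_c0_g1, whose matches include the same beetle factor, averaged 5.2 ± 2.53 at 24 h and 34 ± 17 at 14 h (log2 change -2.46 ± 0.4, adjusted p = 0.0018). DN5050_c0_g1, a match to fly scarface, a protease homologue without known activity, averaged 1.2 ± 0.513 at 24 h and 9.53 ± 4.99 at 14 h (log2 change -2.18 ± 0.34, adjusted p = 0.0016). DN8063_c0_g1 rose, a match to a mosquito trypsin, and averaged 4.92 ± 1.18 at 24 h and 1.81 ± 0.256 at 14 h (log2 change 1.06 ± 0.23, adjusted p = 0.0069). DN2116_c0_g1 averaged 3.43 ± 1.31 at 24 h and 1.39 ± 0.316 at 14 h (log2 change 0.84 ± 0.28, adjusted p = 0.034), and the call was lost for DN2116_c0_g1 without 24 h A, 24 h B, 24 h C, 14 h A, 14 h B or 14 h C (adjusted p = 0.0626 to 0.0871). Between 13 and 15 fell without any 1 library, but the number was 6 with the replicate letter as a block.

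Of the other peptidases, 18 of 116 were tested. Of these 18, 3 rose (16.7%) and 8 fell (44.4%), beside 19.4% and 21.7% of all genes. The median log2 change was 0.14. The genes that fell most belong to the papain family of cysteine proteases, which includes the cathepsins. DN2972_c0_g1, a match to crustapain of a shrimp, had 5.61, 10.9, 0.116 and 3.91 at 24 h, against 18.3, 12.9, 24.1 and 41.2 at 14 h (log2 change -2.34 ± 0.68, adjusted p = 0.023). DN2532_c0_g1 averaged 2.0 ± 1.22 at 24 h and 7.8 ± 3.83 at 14 h (log2 change -1.59 ± 0.42, adjusted p = 0.015). DN15414_c0_g1 averaged 1.09 ± 0.777 at 24 h and 4.76 ± 2.37 at 14 h (log2 change -1.46 ± 0.37, adjusted p = 0.013). DN9647_c0_g1, a match to a matrix metalloprotease, averaged 0.352 ± 0.187 at 24 h and 2.7 ± 1.23 at 14 h (log2 change -1.41 ± 0.24, adjusted p = 0.0024). Rises were seen in DN6324_c0_g1 at 7.83 ± 2.42 at 24 h and 2.43 ± 0.592 at 14 h (log2 change 1.34 ± 0.26, adjusted p = 0.0042), DN5903_c0_g1 (0.91) and DN17897_c0_g1 (0.79), all metallopeptidases and the last an astacin. Among refits, the call ended for DN2972_c0_g1 without 14 h A, 14 h C or 14 h E (adjusted p = 0.052 to 0.0588) and for DN5903_c0_g1 without 24 h B, 24 h C, 14 h A, 14 h B or 14 h C (adjusted p = 0.0535 to 0.0682). The number that fell was 2 with the replicate letter as a block, 3 with the spread of all 26 libraries, 4 without 14 h C or 14 h E, in edgeR and in edgeR with the authors' scaling and 5 without 24 h A, 24 h C or 14 h A.

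Protease inhibitors fell or did not pass the test. In this list, 0 of 8 tested members rose (0%) and 4 fell (50%), beside 19.4% and 21.7% of all genes. The median log2 change was -0.55. DN36699_c0_g1, a match to a Kunitz-type inhibitor, had 3.46, 0.314, 1.91 and 0.733 at 24 h, against 3.98, 4.93, 9.36 and 13.5 at 14 h (log2 change -1.81 ± 0.46, adjusted p = 0.012). DN13010_c0_g1, with a Kunitz domain, averaged 0.749 ± 0.298 at 24 h and 3.46 ± 2.43 at 14 h (log2 change -1.2 ± 0.37, adjusted p = 0.026). DN8642_c0_g1, with a WAP domain, averaged 0.676 ± 0.357 at 24 h and 1.98 ± 1.23 at 14 h (log2 change -0.78 ± 0.28, adjusted p = 0.0488). The serpin match DN7224_c0_g1 averaged 0.47 ± 0.093 at 24 h and 1.31 ± 0.546 at 14 h (log2 change -0.63 ± 0.2, adjusted p = 0.03). The call ended for DN13010_c0_g1 without 24 h C, 24 h D or 14 h C (adjusted p = 0.0548 to 0.0654), for DN8642_c0_g1 without 24 h A, 24 h C, 24 h D, 14 h A, 14 h B, 14 h C or 14 h E (adjusted p = 0.0524 to 0.122) and for DN7224_c0_g1 without 24 h B, 24 h C, 24 h D, 14 h A or 14 h C (adjusted p = 0.0513 to 0.0789). The number that fell was 0 with the replicate letter as a block, 1 without 24 h C, 24 h D or 14 h C and 2 without 14 h A and after quantile normalization, and inhibitors that rose numbered 0 in limma, 0 at an unadjusted p under 0.05, 0 in edgeR and 0 in DESeq2. After quantile normalization, 1 inhibitor rose.

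C-type lectins bind sugars and the fibronectin type 2 domain binds gelatin, and both occur in secreted arthropod proteins. In this list, 5 of 24 tested members rose (20.8%) and 12 fell (50%), beside 19.4% and 21.7% of all genes. The median log2 change was -0.61. DN853_c0_g1, a match to a mussel perlucin-like protein, had 91.4, 85.3, 140.0 and 49.1 at 24 h, against 37.7, 37.2, 31.6 and 38.2 at 14 h, with every 24 h library above the highest at 14 h (log2 change 1.22 ± 0.31, adjusted p = 0.012). DN10497_c0_g1, with the same match, had 0.654, 1.22, 0.019 and 0.138 at 24 h, against 3.81, 3.23, 5.45 and 6.65 at 14 h and was 9.42-fold lower (log2 change -1.97 ± 0.31, adjusted p = 0.0016). DN4193_c0_g1, with a fibronectin type 2 domain, averaged 1.79 ± 0.743 at 24 h and 10.6 ± 3.09 at 14 h (log2 change -2.06 ± 0.3, adjusted p = 0.0012), as DN5811_c0_g1 did 4.56 ± 1.41 at 24 h and 14 ± 6.32 at 14 h (log2 change -1.39 ± 0.32, adjusted p = 0.0077). The lectin DN15070_c0_g1 fell (-1.31), and the lectins DN1903_c0_g1 (1.06), DN3777_c0_g1 (1.14) and DN2584_c0_g1 (0.76) rose. Of 6 tested genes with the fibronectin type 2 domain 5 fell and 0 rose, and 1 missed the threshold. Single-library refits lost the call for DN3777_c0_g1 without 24 h A, 14 h A or 14 h B (adjusted p = 0.0516 to 0.0575) and for DN2584_c0_g1 without 24 h A, 24 h B, 24 h C, 14 h A, 14 h B or 14 h C (adjusted p = 0.0649 to 0.0849). The number of the list that rose was 0 with the spread of all 26 libraries, 2 without 14 h B and 3 without 24 h A, 24 h B, 14 h A or 14 h C, and 11 or 12 fell without any 1 library, though 6 did with the replicate letter as a block.

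Ankyrin repeats are short helical motifs through which many unrelated proteins bind partners, so the list has no common function. In it, 1 of 19 tested members rose (5.26%) and 12 fell (63.2%), beside 19.4% and 21.7% of all genes. The median log2 change was -1.34. DN16633_c0_g1 had 2.81, 0.795, 0.494 and 0.202 at 24 h, against 25.2, 22, 34.1 and 28.4 at 14 h. It was 25.5-fold lower by the means, and its lowest value at 14 h lay above the highest at 24 h (log2 change -3.91 ± 0.36, adjusted p = 1.2e-04). DN30880_c0_g1 had 3.69, 2.66, 0.697 and 1.33 at 24 h, against 35.5, 27.9, 49.3 and 48.8 at 14 h, likewise without overlap (log2 change -3.81 ± 0.36, adjusted p = 1.3e-04). DN17480_c3_g1 averaged 0.342 ± 0.276 at 24 h and 10.7 ± 2.9 at 14 h (log2 change -3.11 ± 0.27, adjusted p = 1.0e-04). DN16633_c0_g2 averaged 0.387 ± 0.22 at 24 h and 8.56 ± 2.59 at 14 h (log2 change -2.76 ± 0.26, adjusted p = 1.3e-04). DN1198_c0_g1, a match to a protein with ankyrin repeats and a SOCS box, rose and averaged 9.06 ± 1.21 at 24 h and 2.68 ± 0.576 at 14 h (log2 change 1.46 ± 0.23, adjusted p = 0.0016). Between 11 and 13 fell without any 1 library. The first matches of the 2 genes with the steepest falls are a virus and a bacterium.

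Chaperones of the HSP70 family fold other proteins, and cyclophilins turn proline bonds. The list of HSP70, DnaJ and folding enzymes had 25 tested members. Of these, 6 rose (24%) and 3 fell (12%), beside 19.4% and 21.7% of all genes, and the median log2 change was 0.3. The cyclophilin match DN17526_c0_g1 had 119.5, 95.6, 125 and 55.3 at 24 h, against 35.1, 31.6, 38.2 and 45 at 14 h (log2 change 1.32 ± 0.29, adjusted p = 0.0068). DN6540_c0_g1, a cyclophilin with a signal peptide mark, averaged 40.6 ± 11.9 at 24 h and 16.8 ± 2.47 at 14 h (log2 change 1.18 ± 0.27, adjusted p = 0.0083). The HSP70 matches DN1373_c1_g1 (1.24) and DN2067_c0_g1 (1.0) rose, the first averaging 25.6 ± 3.06 at 24 h and 10.3 ± 2.18 at 14 h. Of the same family DN1676_c1_g1 fell and had 7.92, 5.07, 9.64 and 10.7 at 24 h, against 22.8, 21.3, 44.4 and 38.8 at 14 h (log2 change -1.79 ± 0.32, adjusted p = 0.0028). DN2709_c2_g2 averaged 4.77 ± 1.52 at 24 h and 19.6 ± 10.7 at 14 h (log2 change -1.74 ± 0.38, adjusted p = 0.0063). The cyclophilin DN14580_c0_g1, whose first match is a plant, averaged 0.212 ± 0.13 at 24 h and 1.13 ± 0.263 at 14 h (log2 change -0.81 ± 0.17, adjusted p = 0.0047). Calls were not kept for DN2067_c0_g1 without 14 h A (adjusted p = 0.0513). Under other settings, rises numbered 1 with the spread of all 26 libraries and 3 without 14 h A.

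Small heat shock proteins hold unfolded proteins in solution, and some are abundant in resting eggs of crustaceans. None of the 6 tested rose and 3 fell (50%), beside 19.4% and 21.7% of all genes. The median log2 change was -0.69. DN3843_c0_g1, a match to a fly small heat shock protein, had 0.745, 0.185, 0.145 and 0.754 at 24 h, against 9.04, 7.22, 15.7 and 21 at 14 h. It was 28.9-fold lower by the means with no overlap (log2 change -3.21 ± 0.35, adjusted p = 2.8e-04). DN1337_c0_g1 averaged 2.04 ± 0.0717 at 24 h and 9.25 ± 4.32 at 14 h (log2 change -1.66 ± 0.31, adjusted p = 0.0035). DN12651_c0_g1 averaged 0.132 ± 0.0203 at 24 h and 2.3 ± 0.937 at 14 h (log2 change -1.5 ± 0.21, adjusted p = 0.0011). All 3 calls held without any 1 library. Genes of the list higher at 24 h numbered 0 in limma, 0 at an unadjusted p under 0.05, 0 in edgeR and 0 in DESeq2. After quantile normalization, 1 was higher. The stage medians of DN3843_c0_g1 were 1.35 at 3 h, 0.435 at 7 h and 12.4 at 14 h, then 0.465 at 24 h and 5.78 at 42 h, with 5.72 in quiescent eggs.

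The sequestosome protein p62 delivers proteins tagged with ubiquitin to autophagy. In the list of p62 and ubiquitin, 2 of 12 tested members rose (16.7%) and 6 fell (50%), beside 19.4% and 21.7% of all genes. The median log2 change was -0.79. DN2283_c0_g1, a match to rat p62, had 1.59, 1.08, 0.813 and 1.05 at 24 h, against 19.7, 16.3, 36.5 and 33.9 at 14 h. That made it 23.5-fold lower by the means, with no overlap (log2 change -3.63 ± 0.3, adjusted p = 1.0e-04). The p62 matches DN3444_c0_g1 and DN1030_c0_g1 averaged 1.23 ± 0.382 at 24 h and 14.4 ± 7.07 at 14 h (log2 change -2.69 ± 0.34, adjusted p = 6.1e-04) and 1.71 ± 0.198 at 24 h and 13 ± 5.52 at 14 h (log2 change -2.28 ± 0.3, adjusted p = 8.0e-04). The ubiquitin match DN10481_c0_g1 averaged 1.93 ± 1.05 at 24 h and 5.9 ± 1.92 at 14 h (log2 change -1.26 ± 0.32, adjusted p = 0.012). The ubiquitin matches DN20520_c0_g1 (0.94) and DN2604_c5_g1 (0.79) rose, and the call was lost for DN20520_c0_g1 without 24 h B, 24 h C or 14 h A (adjusted p = 0.0505 to 0.0745) and for DN2604_c5_g1 without 14 h A or 14 h C (adjusted p = 0.059 to 0.0633). The 6 falls became 6 or 7 without any 1 library.

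**Figure D5:**
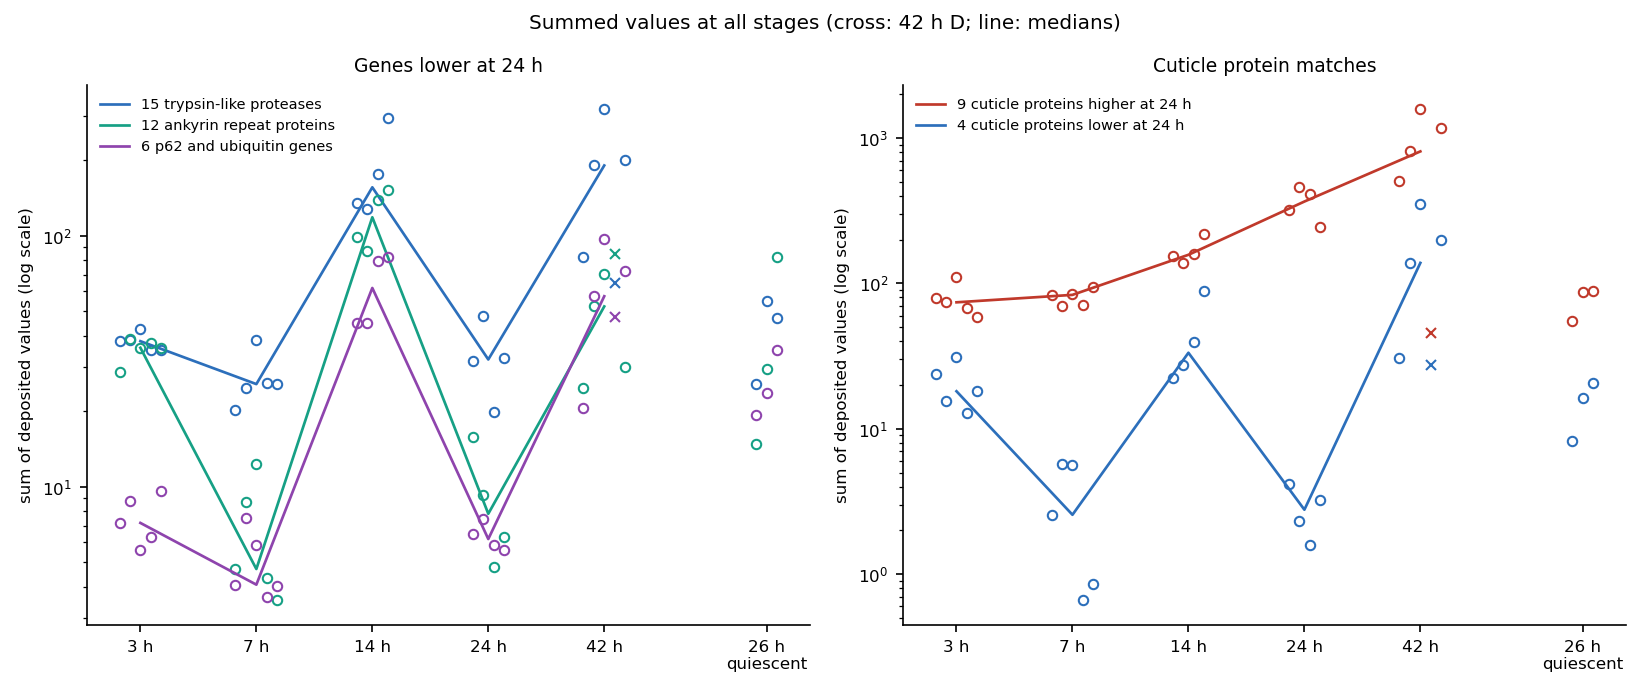
Summed deposited values (vertical axis, log scale) at 3, 7, 14, 24 and 42 h and in quiescent eggs of the trypsin-like, ankyrin repeat and p62 or ubiquitin genes lower at 24 h (left) and of the cuticle genes higher or lower at 24 h (right), each point a library, lines joining the stage medians and a cross marking 42 h D. The 4 genes of the cuticle list chosen as lower at 24 h have a median of 33.3 at 14 h, 2.77 at 24 h and 138 at 42 h.

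Of the redox and detoxification genes, 2 of 18 tested members rose (11.1%) and 1 fell (5.56%), with a median log2 change of -0.07, a share below that of all genes in both directions. DN4534_c0_g2, a match to a nucleoredoxin-like protein, had 12, 8.46, 14.4 and 7.81 at 24 h, against 53.3, 39.9, 91.6 and 68.8 at 14 h and was 5.94-fold lower without overlap (log2 change -2.44 ± 0.31, adjusted p = 6.5e-04). The peroxidase DN143_c0_g1 (1.06) and the NADPH oxidase match DN7134_c0_g1 (0.65), both with overlapping stages, rose. The call was lost for DN143_c0_g1 without 24 h A, 24 h B, 24 h C, 14 h A, 14 h B or 14 h C (adjusted p = 0.0643 to 0.094) and for DN7134_c0_g1 without 24 h A, 24 h B, 24 h C, 14 h A, 14 h B or 14 h C (adjusted p = 0.0843 to 0.11). None of the 3 ferritin genes, which store iron, passed the test in limma. Higher ferritins numbered 0 at an unadjusted p under 0.05, 0 in edgeR and 0 in DESeq2, and lower ones 0 at an unadjusted p under 0.05, 0 in edgeR and 2 in DESeq2. DN8240_c0_g1 averaged 13.9 ± 3.16 at 24 h and 20.3 ± 8.38 at 14 h (log2 change -0.47 ± 0.32, adjusted p = 0.253). DN3233_c0_g1 averaged 13.6 ± 2.44 at 24 h and 15.7 ± 3.69 at 14 h (log2 change -0.19 ± 0.25, adjusted p = 0.572).

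Ribosomal protein genes build the machine that makes proteins, and most were low at both stages. Among those with an animal as best match, 5 of 55 tested members rose (9.09%) and 24 fell (43.6%), with a median log2 change of -0.65. Among those with a plant, fungus, protist or other best match, 10 of 82 tested members rose (12.2%) and 28 fell (34.1%), with a median log2 change of -0.65. The summed values of the animal list were 52.5 to 72.6 at 24 h, against 68.8 to 130.4 at 14 h, and those of the other list were 74.5 to 111 at 24 h, against 122 to 202 at 14 h. Falls made up 43.6% of the first and 34.1% of the second list, beside 21.7% of all genes. Of 155 and 279 such genes in the table only 55 and 82 passed the filter, so most were too low at both stages to be tested. DN135124_c0_g1, a match to protein L38 of a lancelet, had 0.445, 0.462, 0.697 and 0.712 at 24 h, against 6.74, 4.73, 5.03 and 2.58 at 14 h (log2 change -1.82 ± 0.27, adjusted p = 0.0012). DN113503_c0_g1 averaged 0.285 ± 0.228 at 24 h and 3.13 ± 0.456 at 14 h (log2 change -1.69 ± 0.2, adjusted p = 4.1e-04). DN30960_c0_g1 (-1.36) and DN21323_c0_g1 (-1.41) fell too. Those called higher were DN152619_c0_g1 (0.93), DN146805_c0_g1 (0.76), DN128225_c0_g1 (0.59) and DN112715_c0_g1 (0.56). Among refits, the call ended for DN21323_c0_g1 without 24 h A, 24 h D, 14 h A, 14 h B or 14 h C (adjusted p = 0.0577 to 0.068), for DN152619_c0_g1 without 24 h A, 24 h B, 24 h C, 14 h A or 14 h C (adjusted p = 0.0529 to 0.0676), for DN146805_c0_g1 without 24 h A, 24 h C, 24 h D, 14 h A, 14 h B or 14 h C (adjusted p = 0.0605 to 0.135), for DN128225_c0_g1 without 24 h B, 24 h C, 24 h D, 14 h A, 14 h C or 14 h E (adjusted p = 0.0545 to 0.123) and for DN112715_c0_g1 without 24 h B, 24 h C, 24 h D, 14 h A, 14 h C or 14 h E (adjusted p = 0.0619 to 0.117). The number of animal matches that rose was 0 without 14 h A or 14 h C, with the spread of all 26 libraries and after median-ratio rescaling, 1 without 24 h B, 24 h C or 24 h D, with the replicate letter as a block, in edgeR and in DESeq2, 2 without 14 h E, without trend and robust moderation and in edgeR with the authors' scaling, 3 without 24 h A, with a pseudocount of 0.1 and with a sample-sheet term and 8 after quantile normalization.

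Of the ribosomal genes without an animal match, DN34160_c0_g1, a match to protein L39 of the yeast Candida, had 2.87, 2.24, 4.52 and 3.45 at 24 h, against 15, 12.4, 19.3 and 11.2 at 14 h, without overlap (log2 change -1.86 ± 0.27, adjusted p = 0.0012). DN130444_c0_g1, with the same match, averaged 3.14 ± 3.66 at 24 h and 12 ± 3.59 at 14 h (log2 change -2.04 ± 0.58, adjusted p = 0.02). The thale cress matches DN15684_c0_g1 and DN38304_c0_g1 averaged 1.63 ± 1.16 at 24 h and 8.53 ± 2.87 at 14 h (log2 change -1.92 ± 0.36, adjusted p = 0.0035) and 1.01 ± 0.949 at 24 h and 5.49 ± 1.22 at 14 h (log2 change -1.81 ± 0.36, adjusted p = 0.0043). The rises were in DN154519_c0_g1 (0.95), DN6462_c0_g1 (0.86), DN139439_c0_g1 (0.83) and DN153700_c0_g1 (0.75), and all 4 averaged under 5 at both stages. The call ended for DN130444_c0_g1 without 14 h A or 14 h C (adjusted p = 0.0537 to 0.0568), for DN6462_c0_g1 without 14 h A or 14 h C (adjusted p = 0.0524 to 0.0596), for DN139439_c0_g1 without 14 h A (adjusted p = 0.0648) and for DN153700_c0_g1 without 14 h A or 14 h C (adjusted p = 0.0531 to 0.0724). The number that rose was 0 with the spread of all 26 libraries, 3 without 14 h A and with the replicate letter as a block and 6 without 14 h C, and the number that fell was 43 without 14 h E. DN118762_c0_g1, the single tested gene of 7 placed by its ribosomal domain, averaged 2.06 ± 0.847 at 24 h and 1.04 ± 0.445 at 14 h (log2 change 0.57 ± 0.26, adjusted p = 0.109). Of 6 tested translation factors 2 fell and 0 rose in limma, with rises numbering 1 at an unadjusted p under 0.05, 0 in edgeR and 0 in DESeq2. After quantile normalization, 1 translation factor rose. DN22806_c0_g1, a match to elongation factor EF1A of a fungus, averaged 0.322 ± 0.166 at 24 h and 2.19 ± 0.714 at 14 h (log2 change -1.25 ± 0.2, adjusted p = 0.002). The factor IF5A match DN13871_c0_g1, with a yeast, averaged 0.233 ± 0.151 at 24 h and 1.58 ± 0.421 at 14 h (log2 change -1.06 ± 0.18, adjusted p = 0.0024).

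The matched organism was sorted by kind. Of 194 tested genes whose best match was a plant, alga, fungus or protist, 25 (12.9%) rose and 53 (27.3%) fell. Without ribosomal, rRNA antisense, ORF91 and UAF30 matches, 10 of 84 rose (11.9%) and 25 fell (29.8%). Of 725 genes with an animal as best match, 186 rose (25.7%) and 179 fell (24.7%). Whether such genes belong to the copepod or to other organisms in the egg batches was not tested. The 10 tested matches to the chloroplast frame ORF91 summed to 46.9 to 1015 at 24 h, with 1015 in 24 h D, against 22.9 to 324 at 14 h. Of these, DN16015_c0_g1 had 16.9, 7.96, 10.6 and 10.5 at 24 h, against 0, 1.02, 1.59 and 2.44 at 14 h (log2 change 2.55 ± 0.39, adjusted p = 0.0014). DN48565_c0_g1 (1.54) and DN2910_c1_g1 (1.54) rose too. Of 10 tested matches to a yeast frame antisense to ribosomal RNA only DN22715_c0_g1 was called, with a rise (1.13). Antisense matches that fell numbered 3 in DESeq2, without 14 h E and with the replicate letter as a block. Of 10 tested matches to the yeast chromatin protein UAF30, DN90193_c0_g1 rose (1.19) and DN20787_c0_g1 fell (-1.09), and the call was lost for DN90193_c0_g1 without 24 h C, 24 h D, 14 h A or 14 h E (adjusted p = 0.0582 to 0.0751) and for DN20787_c0_g1 without 24 h C, 24 h D, 14 h A, 14 h B or 14 h E (adjusted p = 0.0634 to 0.11). UAF30 matches that fell numbered 4 after quantile normalization, 1 in DESeq2 and 0 in edgeR. Those that rose numbered 0 in each of these settings.

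Of 15 tested histone genes 2 fell (13.3%) and 0 rose, where 21.7% of all genes fell and 19.4% rose. The histone H3 match DN41657_c0_g1 had 1.34, 2.37, 1.75 and 1.52 at 24 h, against 6.35, 6.12, 7.07 and 5.21 at 14 h (log2 change -1.4 ± 0.23, adjusted p = 0.002). The histone H4 match DN9319_c1_g2, with wheat as its first match, averaged 0.138 ± 0.155 at 24 h and 1.16 ± 0.125 at 14 h (log2 change -0.94 ± 0.16, adjusted p = 0.0023). The number of histones that fell was 4 without 24 h C, 5 after quantile normalization and 6 without 24 h D, and those that rose numbered 0 in limma, 0 at an unadjusted p under 0.05, 0 in edgeR and 0 in DESeq2. In the 15 genes together the summed value was 164 to 367 at 24 h, against 277 to 391.7 at 14 h, with the highest 24 h value in D. Of 7 tested genes of the cell cycle and DNA replication, 1 fell (14.3%) and 0 rose. The gene that fell, DN4676_c0_g1, is a match to the yeast large subunit of ribonucleotide reductase, which makes DNA precursors. It averaged 11.6 ± 2.83 at 24 h and 19.3 ± 3.63 at 14 h (log2 change -0.7 ± 0.25, adjusted p = 0.0486), and the call was lost for DN4676_c0_g1 without 24 h A, 24 h B, 24 h D, 14 h A, 14 h B, 14 h C or 14 h E (adjusted p = 0.0619 to 0.145). The 1 tested transposon reverse transcriptase, DN5594_c0_g1, averaged 8.77 ± 3.44 at 24 h and 19 ± 6.01 at 14 h (log2 change -1.06 ± 0.34, adjusted p = 0.031), and the call was lost for DN5594_c0_g1 without 24 h A, 24 h C, 14 h A or 14 h C (adjusted p = 0.0722 to 0.0874).

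Of the genes of lipid transport, yolk and lipases, as many rose as fell. In this list, 6 of 17 tested members rose (35.3%) and 6 fell (35.3%), beside 19.4% and 21.7% of all genes. The median log2 change was -0.27. Those that rose include the vitellogenin-domain gene DN10000_c0_g1, related to yolk proteins, with 5.67, 4.82, 5.87 and 2.86 at 24 h, against 1.69, 1.67, 1.75 and 2.39 at 14 h (log2 change 0.99 ± 0.26, adjusted p = 0.014). The fatty acid binding protein match DN13412_c0_g1 averaged 5.63 ± 1.16 at 24 h and 2.4 ± 0.616 at 14 h (log2 change 0.96 ± 0.25, adjusted p = 0.013). Another such match, DN6042_c0_g1 (0.92), and DN3468_c5_g1, with an apolipoprotein domain (0.69), rose as well. Of those named that fell, 3 have the ML domain, which binds lipids. Of them DN21034_c0_g1, a match to the cholesterol carrier of Niemann-Pick disease, NPC2, had 1.21, 3.88, 0.087 and 1.87 at 24 h, against 5.37, 5.83, 9.51 and 16.4 at 14 h (log2 change -1.97 ± 0.48, adjusted p = 0.01). DN1139_c0_g1 and DN1224_c0_g1, matches to the ganglioside activator, averaged 0.654 ± 0.388 at 24 h and 4.86 ± 1.89 at 14 h (log2 change -1.8 ± 0.3, adjusted p = 0.0023) and 0.973 ± 0.663 at 24 h and 3.94 ± 2.08 at 14 h (log2 change -1.31 ± 0.36, adjusted p = 0.017). The lipase match DN19962_c0_g1 averaged 1.0 ± 0.76 at 24 h and 5.64 ± 4.82 at 14 h (log2 change -1.56 ± 0.46, adjusted p = 0.022). Single-library refits lost the call for DN6042_c0_g1 without 24 h A, 14 h A, 14 h B or 14 h C (adjusted p = 0.0517 to 0.0604) and for DN19962_c0_g1 without 24 h C or 14 h C (adjusted p = 0.053 to 0.0556). Those that rose numbered 3 without 24 h A, 14 h A, 14 h B or 14 h C and with the spread of all 26 libraries, and the number that fell was 1 with the replicate letter as a block and 2 in edgeR and in edgeR with the authors' scaling.

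Of the lysosomal and sugar-cleaving proteins, 2 of 10 tested members rose (20%) and 8 fell (80%), beside 19.4% and 21.7% of all genes. The median log2 change was -1.18. Saposins present lipids to the enzymes that break them down, and lysozyme cuts bacterial walls. The saposin match DN6205_c0_g1 had 1.85, 3.29, 0.097 and 4.75 at 24 h, against 8.64, 7.54, 9.61 and 19.2 at 14 h (log2 change -1.96 ± 0.5, adjusted p = 0.012). A further saposin match, DN7020_c0_g1, averaged 0.931 ± 1.34 at 24 h and 4.61 ± 2.75 at 14 h (log2 change -1.6 ± 0.49, adjusted p = 0.027). The glucosidase match DN8375_c0_g1 averaged 1.71 ± 2.26 at 24 h and 8.09 ± 5.14 at 14 h (log2 change -1.86 ± 0.53, adjusted p = 0.021). The lysozyme match DN6153_c0_g1 averaged 1.43 ± 0.204 at 24 h and 6.01 ± 2.72 at 14 h (log2 change -1.46 ± 0.29, adjusted p = 0.0042). Both beta-glucuronidase matches rose, DN9378_c0_g2 at 25.9 ± 3.69 at 24 h and 10.4 ± 1.23 at 14 h (log2 change 1.24 ± 0.22, adjusted p = 0.0026) and its assembly neighbour DN9378_c0_g1 (0.49). Calls were not kept for DN7020_c0_g1 without 24 h B, 24 h C, 24 h D, 14 h A, 14 h C or 14 h E (adjusted p = 0.0515 to 0.0722), for DN8375_c0_g1 without 24 h A, 24 h C, 24 h D or 14 h C (adjusted p = 0.0508 to 0.0567) and for DN9378_c0_g1 without 24 h A, 24 h B, 24 h C, 14 h A, 14 h B or 14 h C (adjusted p = 0.0769 to 0.0992). The number that fell was 2 with the replicate letter as a block, in edgeR and in edgeR with the authors' scaling, 3 without 24 h C or 14 h C and with the spread of all 26 libraries, 4 without 24 h D or 14 h E and 5 without 14 h A and with a pseudocount of 0.1.

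The table holds 82 membrane transporter genes. Of 19 tested members, 1 rose (5.26%) and 3 fell (15.8%), beside 19.4% and 21.7% of all genes. The median log2 change was -0.17. DN6986_c0_g1, a match to an insect amino acid transporter, averaged 0.343 ± 0.117 at 24 h and 1.76 ± 0.726 at 14 h (log2 change -1.01 ± 0.21, adjusted p = 0.0049). DN8227_c4_g2, a match to the sodium pump, averaged 1.8 ± 0.368 at 24 h and 5.17 ± 3.07 at 14 h (log2 change -1.04 ± 0.32, adjusted p = 0.028). DN414_c0_g1 fell with it (-0.74). The sodium and calcium exchanger match DN3894_c0_g1 averaged 10.6 ± 2.41 at 24 h and 5.26 ± 1.97 at 14 h (log2 change 0.91 ± 0.29, adjusted p = 0.031), with overlapping stages. The call was lost for DN8227_c4_g2 without 24 h B, 24 h C, 24 h D or 14 h B (adjusted p = 0.0534 to 0.0565), for DN414_c0_g1 without 24 h B (adjusted p = 0.0534) and for DN3894_c0_g1 without 24 h A, 24 h B, 24 h C, 14 h A, 14 h B or 14 h C (adjusted p = 0.0612 to 0.0887).

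Many genes that changed had no name. Of the 595 that rose, 326 had no match, domain or signal peptide mark, and of the 666 that fell, 304 had none, beside 1762 of all 3072 tested genes. DN7525_c0_g1 had 0.282, 1.07, 1.34 and 0.83 at 24 h, against 27, 32.6, 49.1 and 55.3 at 14 h, a difference of 46.5-fold between the means (log2 change -4.46 ± 0.31, adjusted p = 7.0e-05). DN524_c0_g1 had 14.6, 8.76, 6.42 and 8.56 at 24 h, against 115, 90.3, 114 and 198 at 14 h (log2 change -3.61 ± 0.32, adjusted p = 1.0e-04). Neither overlapped between the stages. DN1181_c0_g1 averaged 0.701 ± 0.334 at 24 h and 19.6 ± 4.85 at 14 h (log2 change -3.6 ± 0.27, adjusted p = 9.1e-05). DN1998_c0_g1 averaged 1.56 ± 0.892 at 24 h and 28.3 ± 10.5 at 14 h (log2 change -3.5 ± 0.34, adjusted p = 1.5e-04). DN31147_c0_g1 averaged 5.72 ± 2.4 at 24 h and 68.1 ± 18.4 at 14 h (log2 change -3.41 ± 0.34, adjusted p = 1.7e-04).

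The 3 unnamed genes with the largest rises took their highest values in 24 h D. DN24190_c0_g1 had 54.9, 8.24, 28.6 and 349 at 24 h, against 7.72, 6.35, 0.749 and 0 at 14 h (log2 change 3.89 ± 1.19, adjusted p = 0.033). DN14874_c0_g1 had 6.87, 6.63, 5.95 and 20.2 at 24 h, against 0.019, 0.057, 0.073 and 0.027 at 14 h (log2 change 3.22 ± 0.35, adjusted p = 2.8e-04). DN115057_c0_g1 had 5.74, 5.01, 6.42 and 23.4 at 24 h, against 0.706, 0.322, 0.192 and 0 at 14 h (log2 change 2.85 ± 0.43, adjusted p = 0.0014). In the first and the last of these, 24 h D exceeded each other 24 h library more than 3-fold. DN35938_c0_g1 averaged 12.4 ± 9.69 at 24 h and 1.02 ± 1.23 at 14 h (log2 change 2.53 ± 0.61, adjusted p = 0.011). DN20657_c0_g1 averaged 6.62 ± 0.725 at 24 h and 0.425 ± 0.152 at 14 h (log2 change 2.42 ± 0.21, adjusted p = 1.0e-04). Among refits, the call ended for DN24190_c0_g1 without 24 h A, 24 h C, 14 h C or 14 h E (adjusted p = 0.0576 to 0.0868).

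A signal peptide mark stands for products that enter the secretory path. Of 495 marked genes tested, 69 rose (13.9%) and 173 fell (34.9%). Where a mark was all that the identifier gave, 32 of 272 rose (11.8%) and 97 fell (35.7%). Of 1762 genes with no match, domain or mark, 326 rose (18.5%) and 304 fell (17.3%). In 36 assembly components with at least 2 called genes, 29 had all their called genes in 1 direction, 14 of them higher and 15 lower, and 7 had both.

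Levels before and after these stages were read for both directions. By the median over libraries, 296 of the 595 rising genes were highest at 24 h and 298 at 42 h, with 1 at 3 h. Of the 666 falling genes, 368 were highest at 14 h and 208 at 42 h, while the peak of 60 was at 3 h and that of 30 at 7 h. Of all tested genes, 53.1% were highest at 42 h, 16.7% at 24 h and 15.8% at 14 h, so the share of rising genes with their peak at 42 h (50.1%) is near that background. The peaks at 24 h and at 14 h follow in part from the choice of genes by these stages. In 500 of the 666 falling genes the median at 7 h was below 1, and in 515 the median at 42 h was above that at 24 h. The falling genes were chosen for low values at 24 h, which favours a higher median at 42 h. The same counts over all tested genes are not given, so neither count sets the falling genes apart. The troponin I match DN3590_c0_g1 had stage medians of 6.02 at 3 h, 9.19 at 7 h and 12.2 at 14 h, then 40.2 at 24 h and 59.8 at 42 h, with 6.89 in quiescent eggs. For the clip-domain protease DN557_c0_g1 they were 7.25 at 3 h, 1.41 at 7 h and 52.6 at 14 h, then 6.97 at 24 h and 14 at 42 h, with 7.72 in quiescent eggs, and for the p62 match DN2283_c0_g1 they were 1.47 at 3 h, 0.956 at 7 h and 26.8 at 14 h, then 1.07 at 24 h and 18.9 at 42 h, with 7.88 in quiescent eggs. These levels are descriptions with no test, since 24 h and 14 h chose the genes and 42 h D stands apart from its group.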

How the data were processed

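The authors deposited normalized signal values per assembly gene, for genes they had selected among subitaneous samples (alpha 0.001, minimum fold 2). The submitters' processing notes name bcl2fastq and edgeR, and the sources used here give no aligner, counter, versions or scaling. In the deposited signal, values of up to 2000 reads were whole multiples of the worth of 1 read in 100% of cases, within 0.1 of a step, so whole reads could be recovered. No genome came with the data, and names are those in the assembly identifiers. Genes reaching a value of 1 in 3 or more of 8 libraries were tested in R 4.3.3 by limma 3.58.1. The log2(value + 1) was fitted by stage with trend and robust moderation, with Benjamini-Hochberg adjustment across the 3072 genes. Called genes passed 0.05. The tests were first tried on simulated data. Alternatives were edgeR 4.0.16 and DESeq2 1.42.0 on recovered reads, other filters, pseudocounts of 0.1 and 5, other scalings, the spread of all 26 libraries, a sample-sheet term, the replicate letter as a block, and each library left out.

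Named genes (197) are the 12 largest changes in each direction among called genes with a match or domain, no overlap and a mean of at least 5 in the higher group, up to 4 called members per list and direction (2 highest members where none was called), and the 5 largest changes in each direction among unnamed genes under the same conditions. The genes, the lists and their members were chosen with earlier results of these data known, and the name patterns were fitted to the identifiers after the tables were opened, so counts over a list are descriptions without a test of their own. Between the 24 h and 14 h libraries of the same letter, deviations from the stage means had correlations of -0.08 for A, -0.52 for B and 0.12 for C. Such deviations cancel out within a stage, so these values cannot settle whether the letters pair the libraries. Intervals for counting error are not given, since 1 value stands for about 94.1 reads or more and the spread between libraries was used.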

Additional observations from a re-analysis of the deposited data

Results flagged for a closer look

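In 22 of 394 groups of 4 libraries tested, the highest or lowest library lay far from the others, with a gap to its nearest neighbour above Dixon's 95% critical value. Chance flags about 1 in 20 groups, so the total is near what chance gives. The library was 14 h E in 8, 24 h D in 7, 24 h A, 24 h B and 14 h B in 2 each and 14 h C in 1.

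Library 24 h D was far above the next 24 h value in the unnamed genes DN24190_c0_g1 (349, next 54.9), DN14874_c0_g1 (20.2, next 6.87) and DN115057_c0_g1 (23.4, next 6.42), and in the ribosomal gene DN154519_c0_g1 (6.5, next 4.21). In the myosin DN7006_c0_g1 it had 0.202, with 0 in the other 24 h libraries. It was far below the next 24 h value in the ZASP relative DN2927_c0_g1 (0.68, next 1.31) and in the chitin-binding gene DN284_c0_g1 (3.11, next 6.35).

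Library 14 h E was far above the next 14 h value in the cuticle gene DN4296_c0_g1 (40.2, next 14.5), the protease DN44241_c0_g2 (32.3, next 11.7) and the fibronectin type 2 gene DN5811_c0_g1 (23.5, next 10.999). The same held for the protease inhibitor DN8642_c0_g1 (3.82, next 1.55), the collagen match DN1757_c0_g1 (3.8, next 2.31) and the chitin-binding gene DN284_c0_g1 (3.43, next 2.29). The vitellogenin-domain gene DN10000_c0_g1 (2.39, next 1.75) and the arginine kinase match DN11355_c0_g1 (1.37, next 0.811) complete that library's cases.

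Library 24 h B stood above its group in the actin DN1612_c1_g1 (19.4, next 16.9) and the glucosidase match DN8375_c0_g1 (5.09, next 0.678). Library 24 h A did so in the ORF91 match DN2910_c1_g1 (6.63, next 2.97) and the myosin DN18174_c0_g1 (0.354, with 0 in the others). At 14 h, B was high in the unnamed gene DN35938_c0_g1 (2.85, next 0.658) and the ubiquitin match DN2604_c5_g1 (1.87, next 1.001), and C was low in the lectin DN853_c0_g1 (31.6, next 37.2). Any cause of these gaps beyond chance was not tested.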

How the results depend on the processing

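Of the 20 other settings run on the named genes, none reversed the direction of a called one, and DN3233_c0_g1, which was not called, had a log2 change of 0.04 with the replicate block, against -0.19. Of the named genes, 142 of 190 called ones kept the call without any 1 library, and DESeq2 called 183 and edgeR 166 of them. Genes higher at 24 h numbered 334 to 735 and genes lower 533 to 643 when 1 library was left out, the fewest higher without 14 h A and the most without 24 h D. The spread of all 26 libraries gave 204 higher and 493 lower. Testing every gene of the table gave 694 higher and 1323 lower, and a value of at least 5 in 3 libraries gave 348 higher and 237 lower, with 9502 and 1189 genes tested by construction. Whether the letters pair the libraries was not settled. With the replicate block, 674 genes were higher and 480 lower, 24 h D and 14 h E carrying no information there. Median-ratio rescaling gave 602 and 751 with a median change of -0.08, quantile normalization 849 and 623 with 0.13 (57.7% of the calls higher, against 47.2%), edgeR 739 and 483 with 0.13 (60.47% higher) and DESeq2 682 and 754. The last settings were chosen after seeing the data. In edgeR with the authors' scaling 519 were higher and 469 lower, and without both 24 h D and 14 h E 850 and 623. Counts within lists moved by over 1.5 times in 339 of 1560 comparisons with 20 other settings. The cause of these differences was not tested. Genes near a value of 1 rest on about 94.1 to 112 reads.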

Other observations

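Of the falling genes, 8 had no read in any 24 h library, the myosin matches DN5090_c0_g1 and DN73250_c0_g1 among them. With a floor of 3 reads per library, the others were at least 50.2-fold lower at 24 h (DN29994_c0_g1, mean of 1.6 at 14 h) to at least 436-fold lower (DN48733_c0_g1, mean of 13.9 at 14 h). No rising gene was at 0 in all 14 h libraries.

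The 164 genes in which 24 h D exceeded the next 24 h library more than 3-fold summed to 47025 in 24 h D and to 1416 to 6252 in the other 24 h libraries, against 596 to 13985 at 14 h. Of them 2 were called higher and 3 lower. Among the genes that rose, 24 h D was the lowest 24 h library in 56.5%, and 14 h E was the highest 14 h library in 68.2%. Among those that fell, the shares were 21.02% and 60.8%.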
